A study of Mus musculus with 2 samples.

Results

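Aire-high thymic epithelial cells (TECs) that express S100a8 or S100a9 were selected from single-cell RNA-seq of sorted murine TECs and numbered 561 of 8303 cells. They were chosen by their own unique molecular identifiers (UMIs, each standing for 1 captured RNA molecule), expressed per 10000 UMIs of the cell. A member had at least 5 of Aire and at least 2 of S100a8 and S100a9 together. It also had under 4 of the proliferation genes Mki67 and Top2a, under 6 of Mcm2 to Mcm7 summed, under 15 of the cortical genes Psmb11 and Prss16, and under 5 of the tuft genes Avil and Trpm5. The control library held 212 members and the irradiated library 349. Since measured values chose the members, every comparison below is a description of 2 libraries, with no test.

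The study asked how TECs differ after recovery from sublethal irradiation. Thymi of female C57BL/6 mice, with no transgene or mutation named, were taken 15 days after 5.5 Gy of γ-irradiation or from untreated mice of the same age. Mice were 7 weeks old at irradiation by the methods. The labels give 9 weeks, close to the age 15 days later, but 4 weeks in a protocol. Cells were sorted as EpCAM+ CD45- TER119-, a gate that removes leukocytes and red cells, and 3 mice were pooled into 1 library per condition. The deposit is at odds with itself on which library is which. The names used here follow the file names and the cell numbers of the study's text, while the labels name the libraries the other way round, and by the labels every direction between the libraries would reverse. One library per condition allows no estimate of the variation between mice. The 95% intervals given are exact and cover counting error only, and they are too narrow for genes whose UMIs lie in few cells.

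The control library held 58185309 UMIs in 4937 barcodes and the irradiated library 82201657 UMIs in 7167 barcodes. Cells with more than 2000 and fewer than 7500 detected genes and under 15% mitochondrial UMIs were kept, which left 3233 and 5070 cells with a median of 13412 and 13003.5 UMIs. The libraries shared 17 barcodes, no member had the same barcode as a member of the other library, and 2 irradiated members had a barcode that also occurs in the control library. Members carried a median of 19512 and 16417 UMIs (control and irradiated library, in this order throughout). The Aire-high cells under the S100 limit, which met every other limit of the rule, numbered 435 and 708 and carried 19186 and 16239. At an equal depth of 4000 UMIs the median number of detected genes was 1725.5 and 1726 in members and 1751 and 1736 in the other Aire-high cells, so that the sets were closely matched in depth and complexity. No member had fewer than 4000 UMIs.

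Aire is a transcriptional regulator of mature medullary TECs (mTECs) that brings about expression of many tissue-specific antigens, each in a small fraction of the cells, so that developing T cells can be screened for self-reactivity. S100a8 and S100a9 encode small calcium-binding proteins that pair as calprotectin. They are abundant in neutrophils and are induced in stressed keratinocytes, where calprotectin binds metal ions and can be released as an alarm signal. Pcp4 encodes a calmodulin-binding peptide named after Purkinje cells and Serpinb12 an intracellular serpin of epithelia.

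The S100 genes that the results turn on lie side by side on chromosome 3 (mm10). S100a7a occupies chr3:90654017-90658669 (+ strand), S100a8 chr3:90668978-90670035 (+), S100a9 chr3:90692632-90695721 (-) and S100a6, which did not follow the pair, chr3:90612882-90624181 (+). Their promoters are shown from 250 bases before to 20 bases after the RefSeq start (GRCm38.p6), at chr3:90668821-90669090 (+), chr3:90695702-90695971 (-), chr3:90654052-90654321 (+) and chr3:90612644-90612913 (+), because the cells were selected on the first pair and the other genes are their neighbours. Capitals mark the motifs searched on both strands, namely TATAAA (the TATA box), TTGCNNAA (C/EBP), TGANTCA (AP-1) and TTCCNGGAA (STAT).
S100a8: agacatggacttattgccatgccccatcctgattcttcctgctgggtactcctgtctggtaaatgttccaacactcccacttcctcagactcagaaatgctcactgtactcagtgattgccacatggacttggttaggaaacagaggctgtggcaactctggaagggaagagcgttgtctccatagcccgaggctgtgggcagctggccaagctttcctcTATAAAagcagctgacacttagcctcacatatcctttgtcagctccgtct
S100a9: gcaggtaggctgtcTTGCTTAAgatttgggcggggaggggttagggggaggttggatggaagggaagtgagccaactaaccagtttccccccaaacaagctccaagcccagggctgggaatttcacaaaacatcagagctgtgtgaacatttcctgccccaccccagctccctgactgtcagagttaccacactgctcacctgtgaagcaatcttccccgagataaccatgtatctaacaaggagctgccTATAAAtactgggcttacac
S100a7a: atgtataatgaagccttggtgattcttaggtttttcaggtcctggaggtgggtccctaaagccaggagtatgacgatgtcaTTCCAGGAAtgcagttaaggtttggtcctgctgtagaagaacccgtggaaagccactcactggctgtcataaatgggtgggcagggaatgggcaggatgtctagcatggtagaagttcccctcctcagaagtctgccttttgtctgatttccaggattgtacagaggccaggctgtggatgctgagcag
S100a6: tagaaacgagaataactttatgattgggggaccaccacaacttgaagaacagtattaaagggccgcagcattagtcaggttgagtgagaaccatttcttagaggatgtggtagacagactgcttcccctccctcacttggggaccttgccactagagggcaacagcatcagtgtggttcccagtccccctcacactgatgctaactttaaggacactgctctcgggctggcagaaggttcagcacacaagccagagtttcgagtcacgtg
The S100a8 promoter held TATAAA at -30 to -25, counted back from the base before the start. In S100a9 the TATAAA lay at 1 to 6, at the recorded start itself, and TTGCNNAA at -236 to -229. The S100a7a promoter held TTCCNGGAA at -169 to -161, and none of the 4 motifs was in the S100a6 window. Of 32851 promoters of this length, 12.9% held TATAAA, 10.1% TTGCNNAA, 7.23% TGANTCA and 1.01% TTCCNGGAA. A match of these letters describes the sequence and is not a measured binding site.

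Members were common among Aire-high cells in both libraries. They made up 32.8% (29.2 to 36.5) of the 647 Aire-high cells of the control library and 33.0% (30.2 to 35.9) of the 1057 of the irradiated library. Their S100a8 and S100a9 content, on which they were selected, spanned 2 orders of magnitude. The sum per 10000 UMIs ranged from 2.0 through a median of 22.3 to 203 in control members and from 2.04 through 20.2 to 321 in irradiated members. In raw counts the median member carried 39 and 34 UMIs of the pair, and 6 and 13 members had 3 UMIs or fewer. The 22 and 35 members with the most, 10% of them, held 34.8% and 39.3% of all S100a8 and S100a9 UMIs found in members. Thus a minority of members carried a large part of the transcripts.

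Few Aire-high cells lay close to the limit. No UMI of either gene was found in 354 (54.7%) and 560 (53%) Aire-high cells, and 81 (12.5%) and 148 (14%) had some but stayed under the limit of 2. Just inside it, at 2 to under 3, were 20 and 31 members, and just outside, at 1 to under 2, were 24 and 58 cells. On the Aire side, 15 and 23 members had 5 to under 6. Aire itself had a median of 12.3 (5.07 to 38.1) and 12.4 (5.05 to 42.2) per 10000 in members.

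**Figure D1:**
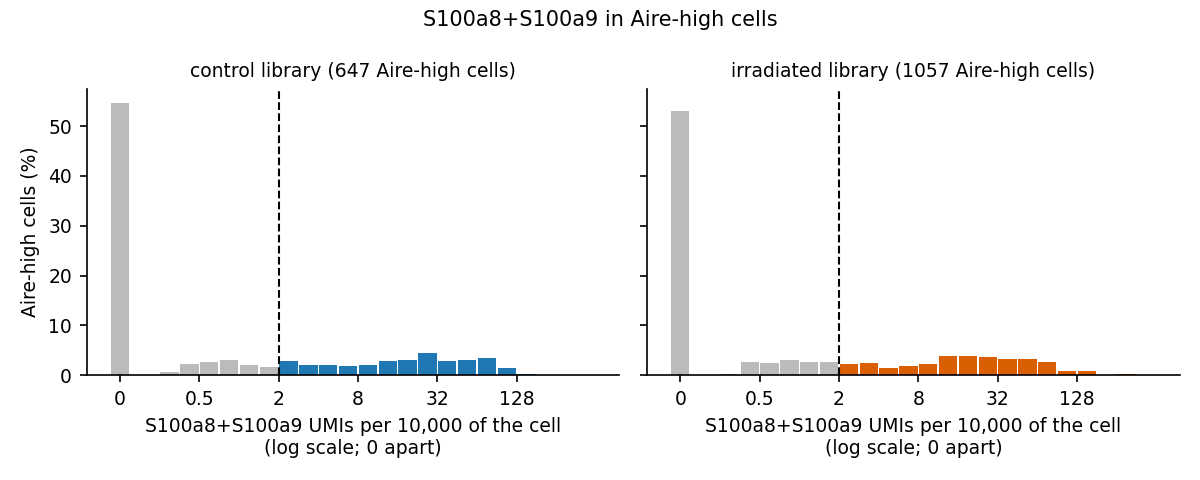
S100a8 and S100a9 summed, in UMIs per 10000 UMIs of the cell, over the Aire-high cells of the control library and the irradiated library (by the study's cell numbers). Cells with no UMI form the largest group in both libraries (54.7% and 53%), and members, at or above the limit of 2, extend to 203 and 321.

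The pair was not evenly balanced among cells. Both genes were detected in 124 (58.5%) and 218 (62.5%) members, S100a8 alone in 79 (37.3%) and 117 (33.5%), and S100a9 alone in only 9 (4.25%) and 14 (4.01%). Over all Aire-high cells, the counts of S100a8 and S100a9 per 10000 had a Spearman's rho of 0.58 in each library, where both genes of a cell share that cell's depth. For each 100 UMIs of S100a8, members had 26.6 and 36.9 of S100a9. The summed level of S100a8 was 25 and 23.3 per 10000 in members against 0.108 and 0.154 in the other Aire-high cells, and that of S100a9 6.66 and 8.57 against 0.0400 and 0.0557, as the rule required.

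Outside the Aire-high compartment the same content was less frequent. The limit of 2 was met by 15.4% and 18.0% of Aire-intermediate cells, which had 1 to under 5 Aire UMIs per 10000 and met the other limits. It was met by 5.80% and 4.36% of cycling cells, and by 1.24% and 4.35% of tuft cells. In cortical cells, which should lack these transcripts, it was met by 1.45% and 1.10%, and in Ccl21a-high mTECs by 0.771% and 0.638%, the lowest shares in both libraries. The share of control tuft cells lay near that of control cortical cells, with 2 cells each, and no background share from empty droplets is given here.

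The name mature mTEC fits the markers of these cells. All 6 epithelial genes of the fixed list were detected, summing to 32.9 and 34.4 UMIs per 10000 in members and 38.3 and 40.5 in the other Aire-high cells, with Krt8, a simple-epithelial keratin, the most abundant. Of the 17 mature mTEC genes that could be compared, none differed by 2-fold or more in both libraries, and the median log2 difference was 0.09 and 0.06. The MHC class II gene H2-Aa stood at 109 and 109 per 10000 in members and 98.3 and 100.4 in the other Aire-high cells. The costimulatory gene Cd80 stood at 0.700 and 0.830 against 0.847 and 0.819. Fezf2, a second regulator of tissue-specific antigens in mTECs, was 5.74 and 5.36 against 7.24 and 7.49 (log2 -0.34 and -0.48), lower in members of both libraries by less than 2-fold. The rule cut both sets at 5 or more of Aire, so its level of 13 and 13.1 against 13.3 and 13.5 is given without a conclusion.

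Pcp4 and Serpinb12 were higher in members. The rule used neither, but both were picked with earlier results of these data known, so their difference is a description. Each is counted again in a list below, Pcp4 among Aire-dependent antigens and Serpinb12 in the serpin B family. Pcp4 was 3.95 and 3.98 per 10000 in members against 1.40 and 1.08 in the other Aire-high cells (log2 1.5 and 1.88). Serpinb12 was 4.07 and 3.27 against 1.09 and 1.07 (log2 1.90 and 1.61). Yet many members had neither. A Pcp4 UMI was found in 64 (30.2%) and 95 (27.2%) members and a Serpinb12 UMI in 105 (49.5%) and 145 (41.5%). Both were found in 17.9% and 14.3%, and neither in 38.2% and 45.6%. Among the other Aire-high cells, of nearly the same depth, 17.9% and 14.7% had Pcp4 and 23.9% and 20.3% Serpinb12, and among Ccl21a-high mTECs the shares were 1.93% and 2.20%, and 1.64% and 1.28%. Both genes were therefore more frequent in members without marking each of them.

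**Figure D2:**
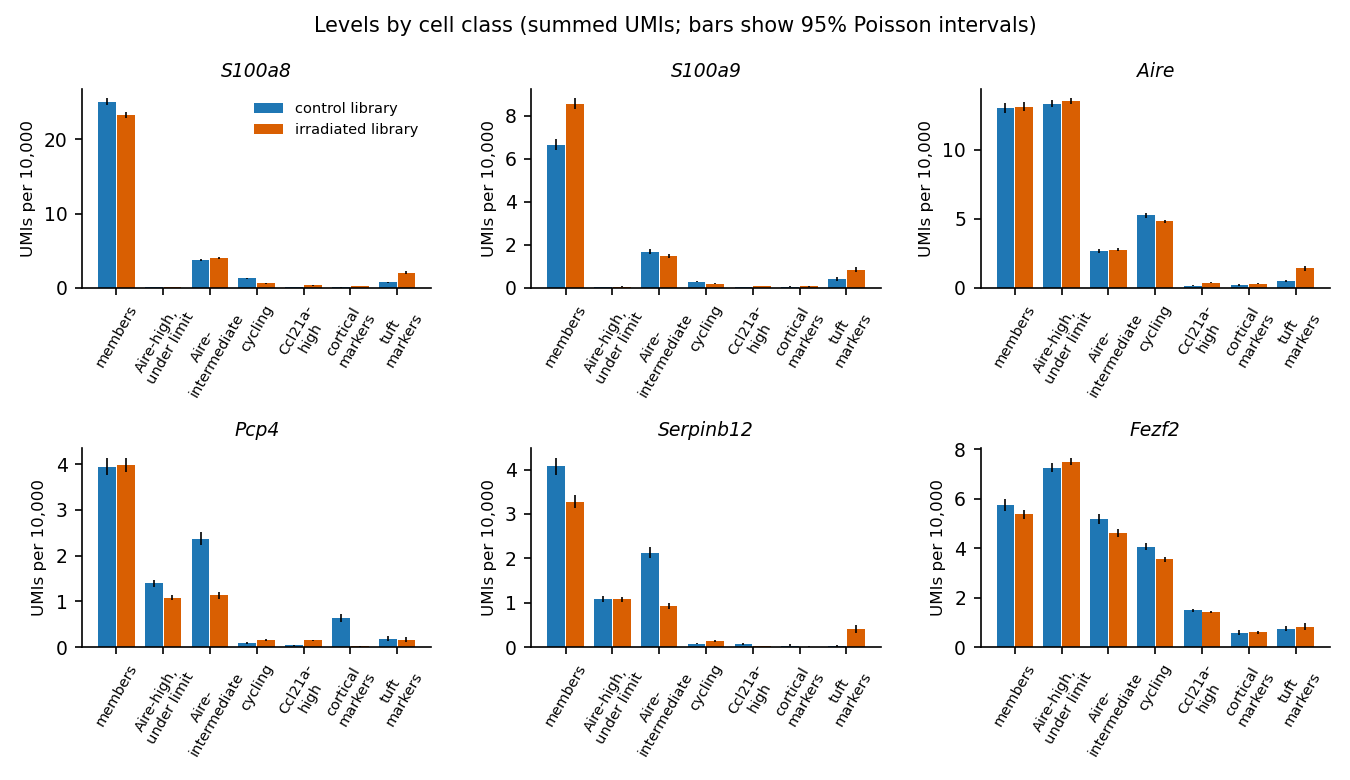
Bars give the levels of S100a8, S100a9, Aire, Pcp4, Serpinb12 and Fezf2 in UMIs per 10000 summed UMIs in 7 classes of cells of the control and irradiated libraries (named by the study's cell numbers), with exact 95% Poisson intervals as error bars. Aire is 13 and 13.1 in members and 13.3 and 13.5 in the other Aire-high cells. The rule set the same lower limit of Aire for these sets, so no conclusion is drawn from its level. Pcp4 and Serpinb12, which the rule did not use but which were picked with earlier results of these data known, are highest in members among the classes drawn.

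Markers of cell types outside the sort gate summed to higher levels in members in both libraries. The neutrophil list of 12 genes summed to 2.95 and 2.61 UMIs per 10000 in members and 2.31 and 1.39 in the other Aire-high cells, with the granule gene Camp most abundant at 0.962 and 0.891, and the chemokine receptor Cxcr2 at 0 in irradiated members. At least 1 of the 12 genes was detected in 42.5% and 38.1% of members against 25.7% and 23.7%, and at least 3 in 2.83% and 2.01% against 1.38% and 0.565%. The macrophage and dendritic cell list summed to 10.8 and 10.1 against 8.28 and 7.86, most of it lysozyme Lyz2 at 8.86 and 7.87. A UMI of Ptprc, which encodes CD45, was present in 5.19% and 2.58% of members against 2.76% and 1.69%. The thymocyte list summed to 1.55 and 1.39 against 0.987 and 0.894, led by Thy1, with Rag2 at 0 in control members. The erythroid list summed to 0.53 and 1.06 against 0.235 and 0.461. Without every cell that had a UMI of the neutrophil list or of Ptprc, an alternative chosen after the data were seen, 119 and 211 members remained, which were 27.5% (23.4 to 32) and 28.6% (25.3 to 32) of the Aire-high cells left. S100a8 in them, which the rule keeps high, was 25.2 and 24.9 per 10000. Pcp4 was 2.96 and 4.98 against 1.23 and 0.880 in the other Aire-high cells left, and Serpinb12 3.48 and 3.08 against 0.814 and 1.03. The part of macrophage, thymocyte and red-cell RNA in the results was not tested.

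Many more genes were higher than lower in members when they were set against the other Aire-high cells. Of 12848 genes with at least 50 UMIs over both sets in each library, 447 (3.48%) were at least 2-fold higher in both libraries and 31 (0.241%) at least 2-fold lower, while the median log2 difference over all genes was -0.06 and -0.02. A gene could reach the minimum of 50 through the set where it was high, so the counts describe the genes that passed. The genes in both directions were sparse ones. Without S100a8 and S100a9, the other 445 had a UMI in a median of 8.02% of control and 6.30% of irradiated members. The median over all genes compared was 25% and 22.1%. Of the 445, 305 (68.5%) and 339 (76.2%) were found in under 10% of members, against 20.3% and 24.3% of all genes compared. The 31 lower genes were as sparse, with a median of 7.08% and 6.30%.

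Of the 15 genes with the largest differences, the one detected in the most members after S100a8 and S100a9 was S100a7a, the mouse gene related to human psoriasin. It stood at 0.620 and 0.454 UMIs per 10000 in members against 0.0318 and 0.0396 in the other Aire-high cells, with log2 differences of 4.29 (3.71 to 4.91) and 3.52 (3.07 to 4.00), and had a UMI in 23.6% and 19.2% of members. The other highest genes rested on few cells. Wfdc12, which encodes a small secreted antiproteinase of epithelia, was 0.436 and 0.375 against 0.0365 and 0.0236 (log2 3.58 and 3.99), in 6.60% and 4.58% of members. Tslp, an epithelial cytokine, was 0.712 and 0.523 against 0.0883 and 0.0346 (log2 3.01 and 3.92), and 5 cells held 93.9% and 76.8% of its UMIs in members. Crisp3, a secreted protein of the salivary gland and male tract, was 0.790 and 0.392 (log2 3.37 and 5.86) and was found in 14 and 7 members. Lce1j and Ivl, which encode proteins of the cornified envelope, were log2 3.93 and 4.28 and log2 2.79 and 3.23, in 5 and 8, and 7 and 7 members. Dab2 (log2 3.12 and 4.53), Prr9 (log2 2.96 and 3.62), Tdgf1 (log2 2.84 and 3.82), Ascl2 (log2 5.52 and 2.83) and Gpha2 (log2 3.34 and 2.74) were also named, and no more than 15 members of a library had any of these. The remaining 2 of the 15 are predicted genes, Gm5039 (log2 6.80 (4.26 to 12.13) and 6.40), found in 1 and 5 members, and Gm20611 (log2 3.0 and 2.68), found in 13 and 24.

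**Figure D3:**
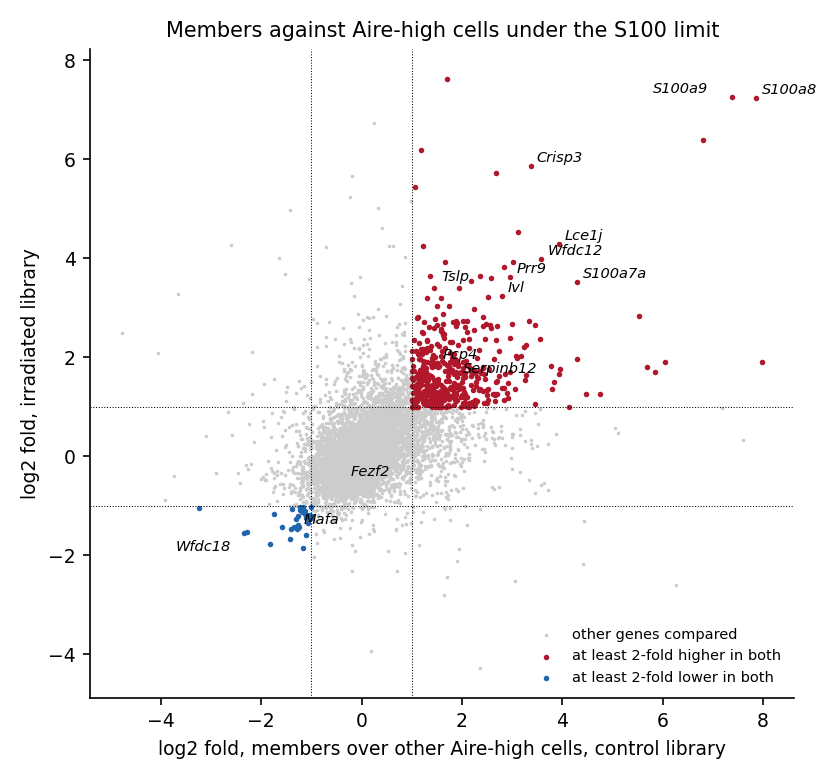
Log2 difference between members and the other Aire-high cells for each gene compared, control library on the x axis and irradiated library on the y axis. S100a8, S100a9 and S100a7a lie far into the upper right, and Wfdc18 and Mafa into the lower left, where 31 genes were at least 2-fold lower in both libraries.

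Genes of the cornifying keratinocyte were among those higher in members. Of 17 compared, 7 were at least 2-fold higher in both libraries and none lower, with a median log2 difference of 0.88 and 1.47 beside 3.48% of all genes and a median near 0. The most abundant, Sprr1a, a cornified-envelope precursor, was 3.33 and 3.06 per 10000 against 1.08 and 1.26 and was detected in 46.7% and 42.4% of members against 26.2% and 20.9%. Krt77, a keratin of eccrine ducts, was 1.12 and 0.969 against 0.304 and 0.297. The same held for Sprr1b, Krt1, Lor, Sbsn and Ivl, whereas Krt10 (log2 0.50 and 0.74) and Krtdap (log2 0.58 and 1.70) did not reach 2-fold in both. The summed list was 10.5 and 9.81 per 10000 in members and 5.09 and 4.25 in the other Aire-high cells. Sprr and Lce genes form families of similar sequence, and how reads were divided among them is uncertain.

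In the serpin B family 4 of 15 genes compared were higher, beside 3.48% of all genes, namely Serpinb12, Serpinb6c (log2 2.18 and 3.55), Serpinb7 (log2 1.89 and 1.12) and Serpinb13 (log2 1.19 and 2.09), and Serpinb6a, which was detected in most cells, was 4.03 and 3.59 against 2.55 and 2.92. In the S100 family, S100a8 and S100a9 were higher by the rule. Among the rest of the 15 compared only S100a7a was higher, and none was lower. S100a6 was 4.01 and 4.84 against 3.64 and 4.16, S100a11 8.18 and 9.84 against 8.46 and 10.2 and S100a14 17.2 and 16.6 against 19.8 and 17.3. S100a16 was 11.2 and 11.5 against 16 and 15.3 (log2 -0.52 and -0.41), lower in members of both libraries by less than 2-fold.

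Genes with known links to S100a8 and S100a9 cover receptors, inducing transcription factors and fellow antimicrobial or neutrophil-attracting genes. Of 15 compared, 1 was at least 2-fold higher and none lower, beside 3.48% higher and 0.241% lower over all genes, with medians of 0.03 and 0.31. That gene, the cytokine Il1b, was 0.262 and 0.111 against 0.0118 and 0.0464 and was found in only 3 and 11 members. The transcription factor gene Cebpb was 1.15 and 0.926 against 1.10 and 1.23 and Stat3 2.73 and 3.19 against 4.08 and 4.22. Tlr4, a receptor for calprotectin, had 0.0413 and 0.0169 UMIs per 10000 in members, too few for a comparison. The chemokine gene Cxcl2 was 2.35 and 1.43 against 2.20 and 1.00.

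Markers of the other specialised mTEC forms that mimic peripheral cells gave mixed values. Beside 3.48% of all genes higher and 0.241% lower, 3 of 5 in the muscle list were higher, with the cardiac actin gene Actc1 at 0.356 and 0.427 against 0.0600 and 0.0675 in 4.72% and 4.58% of members, and Ckm and Chrna1 in under 10% of members. In the microfold list 1 of 9 was higher, Ccl20, a chemokine for Ccr6+ cells, at 1.43 and 1.74 against 0.60 and 0.475. In the tuft list 1 of 5 was higher, Avil, on which the rule sets an upper limit. The neuroendocrine transcription factor gene Insm1 was 2.03 and 2.34 against 3.05 and 2.94. None of 12 enterocyte genes passed in both libraries (medians 0.31 and 0.60), although Reg3g, an antimicrobial lectin, was 8.87 and 9.97 against 5.2 and 4.38. None of 3 ciliated and none of 2 secretory genes compared did. Among Aire-dependent antigens of long standing, 2 of 6 were higher, Pcp4 and the insulin gene Ins2 at 0.372 and 0.434 against 0.141 and 0.160, and 1 was lower, Wfdc18. The casein gene Csn2 was 20.5 and 21.4 against 12.3 and 12.1, under 2-fold. In the thymocyte list 1 of 7 was higher, Dntt.

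Wfdc18 was the most abundant of the 10 named genes that were lower. This gene, which encodes a secreted whey acidic protein, stood at 0.920 and 1.86 UMIs per 10000 in members and 4.48 and 5.39 in the other Aire-high cells, with log2 differences of -2.28 (-2.44 to -2.14) and -1.53 (-1.63 to -1.44). It was detected in 46.2% and 40.7% of members and 52.4% and 46.6% of the other cells, so the amount differed more than the share of cells. H2afy2, which encodes a macroH2A histone variant, was 0.264 and 0.317 against 0.794 and 0.851 and was found in 29.7% and 29.5% of members against 49.7% and 52.0%. Mafa, a transcription factor of pancreatic β cells, was 0.262 and 0.332 against 0.632 and 0.906 (log2 -1.27 and -1.45). The transcription factor genes Hmx2 (log2 -1.83 and -1.78) and Tfap4 (log2 -1.29 and -1.47), the replication gene Pclaf (log2 -2.34 and -1.54), and Castor1 (log2 -1.41 and -1.47), Ajap1 (log2 -1.28 and -1.38) and Erv3 (log2 -1.42 and -1.68) were also named, as was the predicted gene 2310034O05Rik (log2 -1.34 and -1.42). Pclaf belongs to the proliferation genes, whose relatives the rule limited in both sets. The cyclin gene Ccnd2, from the list of cell-cycle exit and survival, was 4.46 and 4.11 against 7.67 and 8.52 (log2 -0.78 and -1.05).

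Among genes that describe the machinery of the Aire-high state, none of 22 genes for partners of Aire, such as Prkdc, differed by 2-fold in both libraries (medians -0.12 and -0.12), and none of 15 genes of RANK and NF-κB signalling did (-0.13 and -0.03). Over all genes 3.48% were higher and 0.241% lower, so that a count of 0 in a list of this size is near the background. The same count of 0 was found for 15 interferon-response genes, 15 immediate early and heat-shock genes, 14 p53 targets, 18 genes of cell-cycle exit and survival, 9 cortical genes, 7 genes of Ccl21a-high mTECs and 7 genes around Fezf2 that could be compared. It was also found for lists of cells outside the sort gate, whose medians were above 0 in both libraries, at 0.30 and 0.85 for 5 neutrophil genes, 0.46 and 0.23 for 9 macrophage and dendritic cell genes and 1.27 and 0.55 for 3 erythroid genes.

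Position on the chromosome was examined after the data were seen, because the late cornified-envelope and Sprr genes lie beyond the S100 genes. Within 1 Mb of the S100a8 and S100a9 pair only 1 of 29 genes compared (3.45%) was at least 2-fold higher in both libraries, namely S100a7a. At 1 to 2 Mb there were 10 of 43 (23.3%), namely Lor, Prr9, Ivl, Sprr1a, Sprr1b and 5 Sprr2 genes or pseudogenes, and at 2 to 5 Mb 6 of 97 (6.19%), Lce1j, Lce3b, Lce3d, Crabp2, Nes and Ctsk. The rest of chromosome 3 gave 14 of 480 (2.92%) and the other chromosomes 414 of 12197 (3.39%). The share within 1 Mb was thus close to that of the other chromosomes, and S100a6, just beyond S100a7a, was at about the same level in both sets.

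**Figure D4:**
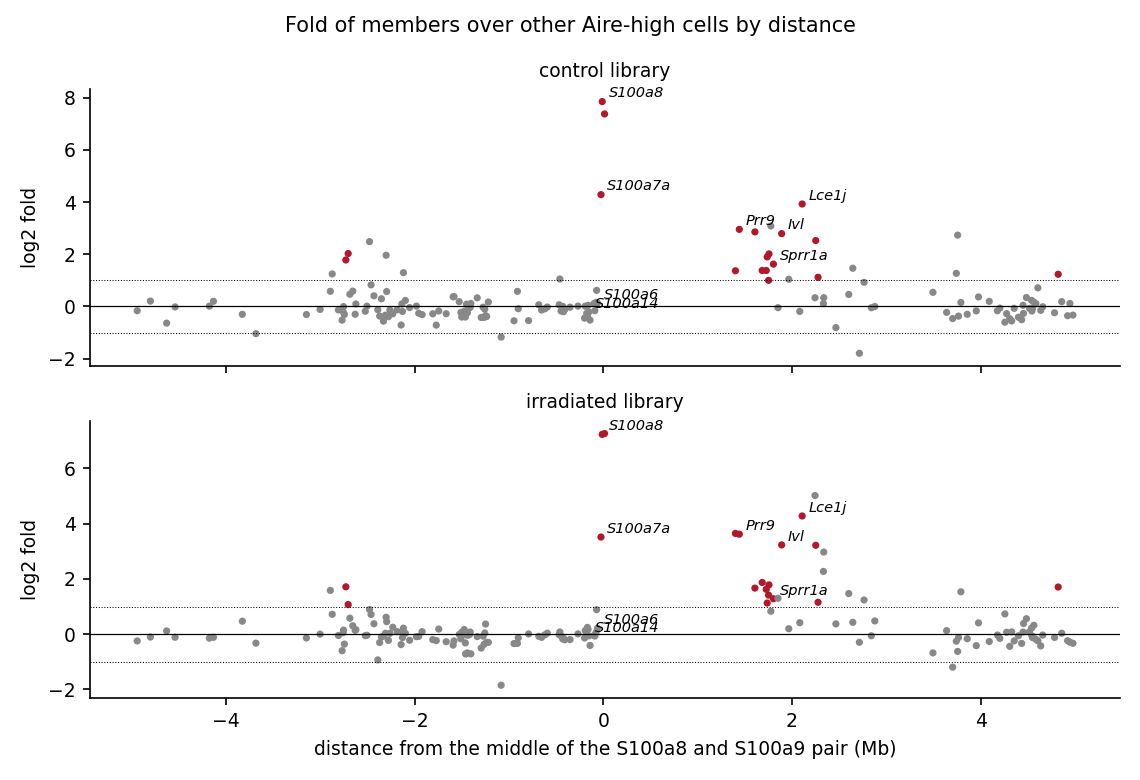
Log2 difference between members and the other Aire-high cells by distance of a gene from the S100a8 and S100a9 pair on chromosome 3, in Mb, with the control library in the upper panel and the irradiated library in the lower one. Red points are at least 2-fold higher in both. Most genes lie near 0, and S100a7a beside the pair and a cluster at 1 to 2 Mb (10 of 43 genes) stand above it.

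Levels did not follow the S100 content step by step in every gene. Wfdc18 was 4.68 and 6.22 per 10000 in Aire-high cells with no S100 UMI, 3.59 and 2.67 in those above 0 but under the limit, and 0.571 and 2.18 in members with 16 or more. The lowest control value was in this last range, but the lowest irradiated one, 0.815, was in the range of 8 to under 16. S100a7a was 0.0331 and 0.0187 at no UMI and 0.914 and 0.707 at 16 or more, its highest values. Pcp4 was 1.22 and 0.761 at no UMI and 4.67 and 5.84 at 16 or more, but between them it ranged from 0.271 to 5.37 with no order. Aire, which the rule set at 5 or more in all of these cells, lay between 12.3 and 14.3 in the 6 ranges of both libraries.

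**Figure D5:**
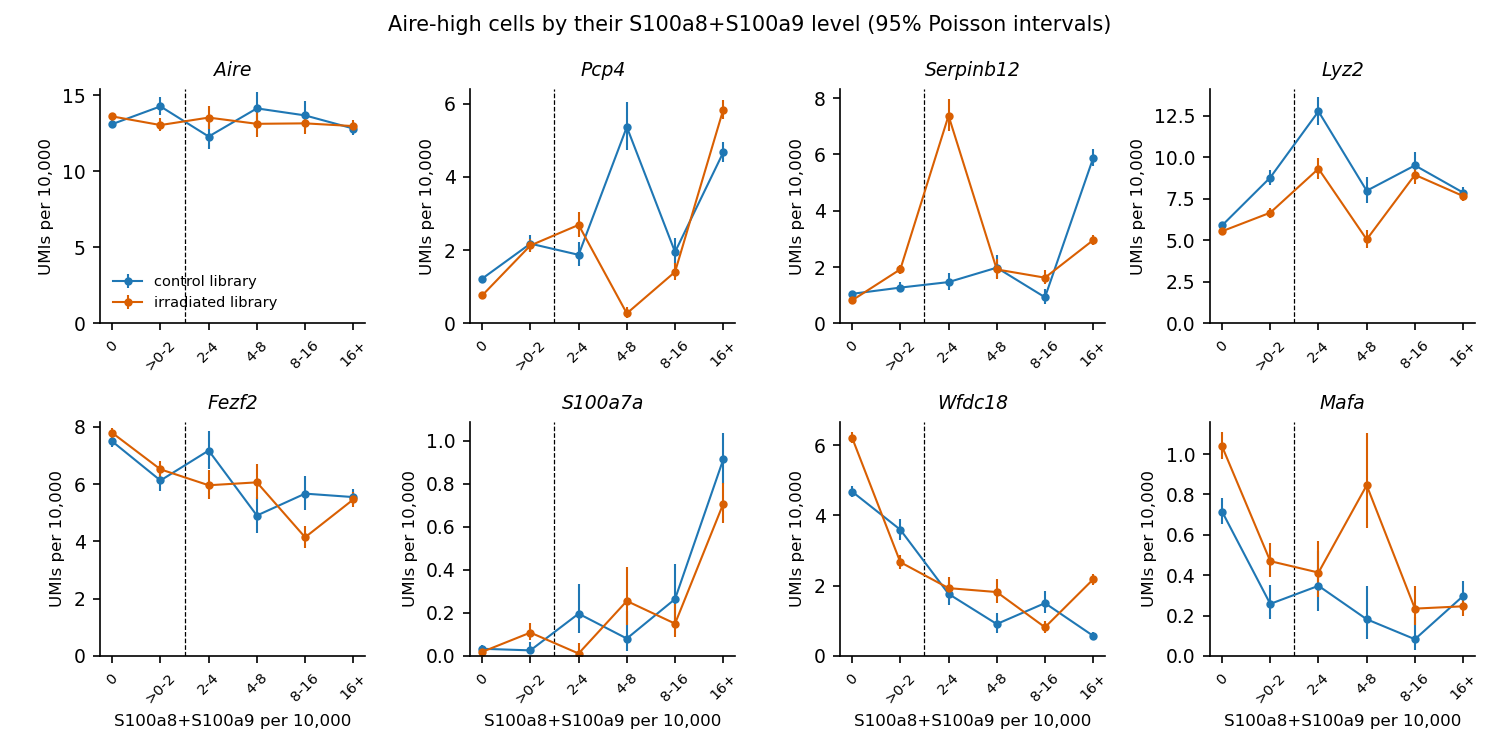
Levels of Aire, Pcp4, Serpinb12, Lyz2, Fezf2, S100a7a, Wfdc18 and Mafa in UMIs per 10000 summed UMIs, with exact 95% Poisson intervals, over Aire-high cells ordered by their S100a8 and S100a9 content in 6 ranges, for the control and irradiated libraries. Wfdc18 is highest in cells with no S100 UMI, S100a7a is highest at 16 or more, and Pcp4 and Serpinb12 vary without a steady order. Aire, which the rule set at 5 or more in all of these cells, lies between 12.3 and 14.3.

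Members were next set against Aire-intermediate cells, of which there were 319 and 510 with a median of 15578 and 13345 UMIs. The rule used Aire in this contrast. Of 12179 genes compared, 660 (5.42%) were at least 2-fold higher in members in both libraries and 463 (3.80%) lower. With every cell thinned to 4000 UMIs, 161 of 5519 genes were higher and 207 lower, and with a minimum of 100 UMIs at full depth 390 of 9538 were higher and 346 lower. The balance of directions in this contrast thus changed with the setting, and the cause was not tested. The highest named genes were Npm2, an oocyte nucleoplasmin (log2 4.88 (3.27 to 7.19) and 4.61 (2.99 to 6.93), with 3 UMIs in the intermediate cells of each library), Prph2, a photoreceptor disc protein (log2 4.67 (3.06 to 6.98) and 3.74 (2.43 to 5.42)), Cuzd1 of pancreatic acini (log2 3.69 (2.58 to 5.06) and 5.29 (3.38 to 8.37)) and the natriuretic peptide gene Nppb (log2 3.47 (2.64 to 4.42) and 5.75 (3.85 to 8.82)), which had 2 or 3 UMIs in the intermediate cells of at least 1 library. The oligodendrocyte gene Ermn (log2 3.61 and 3.71), the receptor gene Cntfr (log2 3.38 and 3.53), Gabrr1 (log2 4.52 and 3.51) and Dppa1 (log2 3.64 and 3.69) were also named. The other 2 are predicted genes, Gm17090 (log2 3.92 and 3.78), detected in 24.1% and 25.5% of members, and Gm5039 (log2 3.50 and 4.74). The genes with a known tissue are of unrelated ones. Apart from the predicted genes, Cntfr was the most widely detected of these higher genes, in 16% and 15.2% of members. Most of the others rested on few cells. Nppb was found in 4 and 3 members, Npm2 in 5 and 9, Gabrr1 in 9 and 14, and Cuzd1 in 11 and 9. Ermn was found in 11 and 11 members, Prph2 in 16 and 25, and Dppa1 in 17 and 20. Wfdc18 showed a larger gap than before, at 0.920 and 1.86 in members against 11.9 and 16.1. The other named genes that were lower were the cyclin gene Ccna2 (log2 -3.21 and -3.12), the matrix protease gene Mmp7 (-2.82 and -3.44), the chemokine gene Ccl6 (-3.84 and -2.81), Rptn (-2.77 and -2.83), Vwa1 (-2.97 and -2.63), Gpa33 (-2.54 and -2.58), the actin-binding Tagln (-3.19 and -2.53) and Pigr, the receptor that carries IgA across epithelia (-2.50 and -2.74). Pnp2, with 3 UMIs in control members, gave -5.39 (-7.69 to -3.82) and -2.82 (-3.53 to -2.18).

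Lists separated the members from Aire-intermediate cells in another way than from Aire-high cells. Over all genes in this contrast 5.42% were higher and 3.80% lower. Of 15 interferon-response genes 5 were at least 2-fold lower in members, Irf7, Isg15, Oasl2, Ifi27l2a and Rtp4, with medians of -0.97 and -1.03. Among the other lists with lower genes and none higher were 3 of 7 genes of Ccl21a-high mTECs (Ccl21a, Krt5 and Ccl11), 3 of 9 microfold genes (Gp2, Ccl9 and Ccl6), 3 of 18 genes of cell-cycle exit and survival (Ccnd1, Mycl and Bcl2a1a), 2 of 9 cortical genes (Cxcl12 and Ctsl) and 2 of 15 immediate early and heat-shock genes (Fos and Jun). Keratinocyte genes were again higher, 5 of 17, as were 5 of 15 S100 genes, namely the selected pair, S100a5, S100a7a and S100z, and 2 of 17 mature mTEC genes, Hdc and Xcl1. Markers of cells outside the sort gate were also among the higher genes, with 2 of 8 macrophage and dendritic cell genes (Itgam and Tyrobp), 2 of 6 thymocyte genes (Dntt and Thy1), 1 of 5 neutrophil genes (Mpo) and 1 of 3 erythroid genes (Alas2), and their part in this contrast was not tested.

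The S100 limit was then applied within Aire-intermediate cells, which the rule for members did not use, an alternative chosen after the data were seen. It separated 49 from 270 control cells and 92 from 418 irradiated cells. Aire, limited in this class to 1 to under 5, was 3.21 at or above the S100 limit against 2.54 under it in the control library. In the irradiated library it was 3.29 against 2.63 (log2 0.34 (0.14 to 0.53) and 0.32 (0.17 to 0.47)). Of 9744 genes compared, 267 (2.74%) were at least 2-fold higher at or above the limit in both libraries. Genes at least 2-fold lower in both numbered 148 of 9246 on other chromosomes and 8 of 377 on chromosome 3 more than 5 Mb from the pair. Of the 144 genes higher in members that could be compared here, 68 (47.2%) were at least 2-fold higher at or above the limit in both libraries. They are 25.7% of the 265 genes higher here besides S100a8 and S100a9, and 106 of the 144 were above 0 in both libraries. The split used S100a8 and S100a9, which also chose the members. A sparse gene could also enter the comparison through the side where it was high. These shares therefore describe the genes that passed and are no independent check. Serpinb12 was 6.70 against 1.19 per 10000 in the control library and 3.05 against 0.424 in the irradiated library (log2 2.49 and 2.85). Pcp4 gave log2 differences of 0.74 and 1.72, with the first under 2-fold. Wfdc18 was 4.06 against 13.5 and 2.44 against 19.3 (log2 -1.73 and -2.98), and Mafa gave -1.65 and -1.30. These 4 genes kept their direction in both libraries, whereas Dab2 (log2 3.38 and -0.91), Gm20611 (1.57 and -0.41), Ascl2 (-1.12 and 1.61) and 2310034O05Rik (-1.49 and 0.22) differed in sign between the libraries, and Erv3 and Gm5039 were at 0 UMIs at or above the limit in the control library and gave log2 differences of 1.04 and 2.09 in the irradiated library.

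Between the libraries, members took a nearly equal share of the cells. They were 6.56% (5.73 to 7.47) of kept cells in the control library and 6.88% (6.20 to 7.62) in the irradiated library, a log2 ratio of 0.07 (-0.18 to 0.32). Among Aire-high cells the log2 ratio was 0.01 (-0.24 to 0.26). The interval covers counting error only, and with 1 pool of mice per condition the variation between pools is unknown. Over the same kept cells, cycling cells were 8.54% and 14% (log2 0.72, 0.51 to 0.92), Aire-intermediate cells 9.87% and 10.1%, and tuft cells 4.98% and 3.18%. The names of the libraries follow the study's cell numbers, and by the labels each of these directions would reverse.

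Members of the irradiated library were compared with members of the control library. On the log2 scale, irradiated over control, S100a8 and S100a9, which the rule keeps high in both, differed by -0.10 and 0.36. Pcp4 differed by 0.01 and Serpinb12 by -0.32, but without the cells that had a UMI of the neutrophil list or of Ptprc, Pcp4 was 2.96 per 10000 in control members and 4.98 in irradiated members. Of 12586 genes compared within members, 268 (2.13%) were at least 2-fold higher in the irradiated library and 458 (3.64%) at least 2-fold lower. With every cell thinned to 4000 UMIs the counts were 91 and 81 of 6617 genes, and the excess of lower genes was no longer seen among the fewer genes compared. Without cells that had a UMI of the neutrophil list or of Ptprc, they were 242 and 271 of 9975. The largest differences rested on few cells. Hsd3b1, a steroid-synthesis gene, had 51 UMIs in 11 irradiated members and none in control members. The lower exact 95% limit of its log2 ratio was 3.29, and the fold was 12.5 with the control count set to 3 UMIs. The embryonic globin gene Hbb-y was 0.211 and 2.23 per 10000 in 5 and 14 members, and Hbb-bt, Lyg2, Meg3 and Ihh gave log2 ratios of 3.0 to 3.80. Fst and Stfa2 had 1 UMI each in control members, with ratios of 5.91 (3.40 to 11.23) and 5.88 (3.36 to 11.20). Itm2a, Prf1, Alppl2, Cryga, Gucy2e and Fgf4 were among those named as lower, with log2 ratios of -4.96 to -3.77, of which Alppl2 was -1.37 without the deepest 5% of cells. None of 14 p53 targets differed by 2-fold, with a median of 0.02, and Cdkn1a, the cell-cycle inhibitor among them, was 1.52 and 2.50 (log2 0.72). The stress list had a median of -0.43 and 1 lower gene, Fosb. The 2 erythroid genes that were higher in irradiated members, Hbb-bs and Hbb-bt, are themselves part of the summed erythroid list given above. The part of red-cell RNA in their difference was not tested.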

How the data were processed

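Deposited values were UMI counts per gene and barcode (32285 genes). The authors made these counts with Cell Ranger (5.0.1 by the file header, 5.1 by the submitters' processing notes) on mm10 from 3′ libraries, whose kit chemistry is version 3 in the methods and version 2 in the labels. Nothing had been normalized. Genes found in at least 5 barcodes of a library were counted as detected. Levels are UMIs summed over a set of cells per 10000 summed UMIs (Python 3.11.15, scipy 1.17.1). Shares have Clopper-Pearson, sums Poisson and ratios conditional binomial 95% intervals, all exact. No doublet caller was run. With 1 library per condition no test was made. The 2-fold rule, but not the intervals, was tried on simulated sums with known folds. Named genes are the 15 highest and 10 lowest against the other Aire-high cells, 10 and 10 against Aire-intermediate cells and 8 and 8 between libraries, by the log2 difference nearer 0, plus all listed markers. Predicted genes may go unnamed, and some listed genes are not reported here. The members and lists were chosen with earlier results of these data known. Gene positions come from GENCODE vM21, and 32158 of the 32285 gene identifiers matched. Alternative limits, filters and thinning to 4000 UMIs were tried.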

Additional observations from a re-analysis of the deposited data

Results flagged for a closer look

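Some barcodes outside the cell filter also met the expression limits of the rule, and whether they are cells of this kind was not tested. In the control library 30 of the 1704 barcodes left out (1.76%) met every expression limit of the rule, 27 of them with too few detected genes, 2 with too many and 9 with a high mitochondrial share. In the irradiated library 60 of 2097 (2.86%) did, 55 with too few, 2 with too many and 26 with a high mitochondrial share, and a barcode could fail on more than 1 count. They are given here because no comparison used them.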

How the results depend on the processing

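The member share followed the limits that define it. It was 8.03% in the irradiated library with an S100 limit of 1, 5.26% and 5.66% (control and irradiated) with a limit of 5, 7.64% and 8.34% with an Aire limit of 2, 4.39% and 4.42% with an Aire limit of 10, and 7.62% in the irradiated library after thinning to 4000 UMIs. Leaving out cells with neutrophil-list or Ptprc UMIs, chosen after the data were seen, gave 4.54% and 4.98%. The log2 ratio of the shares ranged from -0.03, with a mitochondrial limit of 10%, to 0.14 over all alternatives. Thinning left 6881 genes to compare with the other Aire-high cells, 118 higher and 11 lower, 161 higher and 207 lower against Aire-intermediate cells, and 91 higher and 81 lower between libraries. With a minimum of 20 UMIs these counts were 843 and 53, 1114 higher, and 575 and 886, and with a minimum of 100 they were 259 and 20, 390 higher, and 117 and 205. Without cells with neutrophil-list or Ptprc UMIs, 330 genes were higher and 47 lower than in the other Aire-high cells, and 242 were higher and 271 lower between libraries. Fewer genes or cells enter most of these counts by construction. Of the 25 named genes of the main contrast, 8 of the 9 still compared after thinning kept a 2-fold difference. The 15 still compared at the minimum of 100 all did, because a UMI minimum leaves a gene's fold unchanged. Over all alternatives run, 366 of 366 values of these genes' log2 differences kept their sign, as did 254 of 254 against Aire-intermediate cells and 81 of 81 between libraries, and 420 of 468 list medians. Named genes were picked for large differences in these same cells, and the rule fixed S100a8 and S100a9. The kept signs and folds of the named genes therefore do not show robustness. No paired analysis was possible because each condition has 1 library, and for the same reason no replicate could be left out. Both libraries being pools of 3 mice, no value here includes variation between mice.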
